A study of Homo sapiens with 24 samples.

Results

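A set of 1926 regions of the genome carried a strong open-chromatin peak in parental LNCaP cells and no strong peak in their enzalutamide-resistant derivative RES-A. They are called LNCaP-only regions here, and they made up 1.69% of the 113665 regions compared. They were chosen by peak pileup. The 50000 peaks of highest pileup (the number of overlapping DNA fragments at the peak) were kept in each of 24 peak lists, the kept peaks of all lists were merged on the 22 autosomes wherever they overlapped by 1 bp, and a region was taken when it was kept in at least 11 of the 12 LNCaP lists and in none of the 12 RES-A lists. Because the regions were selected on these pileups, the difference between the sublines at the regions is given as a description with no test. A mirror set, chosen the same way with the sublines exchanged, held 3052 regions (2.69%), and 12875 regions were kept in all 24 lists and are called always-open regions.

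FAIRE-seq isolates DNA that is free of nucleosomes from cross-linked and sheared chromatin, so a peak marks a stretch where regulatory proteins can reach the DNA. In luminal prostate cancer cells many such stretches are enhancers, distant from genes, where the androgen receptor binds beside factors that open chromatin, such as FOXA1. The receptor is activated by dihydrotestosterone (DHT), and enzalutamide (ENZ) competes with the androgen for it.

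LNCaP is a human prostate cancer cell line that depends on androgen, and RES-A is one resistant subline obtained by growing LNCaP in rising ENZ over months. A preculture of 3 days with 5% charcoal-stripped serum, which is low in steroids, came first, and 10 µM ENZ was present in it for RES-A alone. Both then received DMSO (solvent control), 10 nM DHT, 10 µM ENZ or DHT with ENZ (DHT+ENZ) for 18 h, so that the RES-A DMSO group had been in ENZ until the treatment began, and ENZ before treatment and subline cannot be told apart. Each of the 8 groups had 3 libraries, which the methods describe as biological triplicates.

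The lists held 73254 to 275774 peaks. LNCaP ENZ replicate 1 (73254 peaks) and LNCaP DHT replicate 1 (82224 peaks) stood apart from the others. The 50000 kept peaks made up 68.3% and 60.8% of their lists and reached down to a pileup of 6 and 8, against 25 to 56 in the RES-A lists. They also decided many memberships. Of the LNCaP-only regions, 799 were kept in all 12 LNCaP lists and 1127 in 11, and the list that lacked the region was LNCaP ENZ replicate 1 in 622 of the 1127 (55.2%) and LNCaP DHT replicate 1 in 247 (21.9%). Without both libraries and with 9 of the 10 other LNCaP lists required, the rule gave 3186 regions, among them all 1926.

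The LNCaP-only regions were strong but not the strongest sites of the parental cells. Their median pileup percentile within the LNCaP lists was 89.2, against 95.3 at the always-open regions, and their median fold enrichment over local background in LNCaP was 6.33, against 8.43. Both sets were chosen by pileup, so this order is a description only. They were broader than most merged regions, with a median length of 643 bp (quartiles 522 and 773, range 240 to 1782) against 433 bp over all merged regions. The median was 602 bp at regions kept in at least 11 LNCaP lists, 611 bp at the always-open regions and 482 bp in the mirror set. A merged region spans all its kept peaks, so its length can grow with the number of lists that kept it. Among regions kept in no RES-A list, the median was 588, 622 and 668 bp for 10, 11 and 12 LNCaP lists. Just outside the threshold lay 1097 regions kept in 10 LNCaP lists and no RES-A list, with a median LNCaP percentile of 84.5 against 87.7 for those kept in 11. A further 471 regions were kept in at least 11 LNCaP lists and in 1 RES-A list, and their median RES-A percentile was 62.2.

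Most LNCaP-only regions still had a peak in RES-A. A peak below the kept 50000, called a weaker peak here, lay on 1776 of them (92.2%) in at least 1 RES-A list, on 1466 (76.1%) in at least 6 and on 785 (40.8%) in all 12, while 150 (7.79%) had no peak of any strength in any RES-A list. Over all merged regions, 6.77% had no RES-A peak of any strength, and 69.0% had one, kept or weaker, in all 12 lists. Over the regions kept in at least 11 LNCaP lists these shares were 0.571% and 94.3%. Per library, the share of LNCaP-only regions with a weaker peak was 71.5% ± 2.98 (SD, n = 12 RES-A libraries) and ran from 67.2% in RES-A DMSO replicate 1 to 77.5% in RES-A ENZ replicate 2. It was 70.0% ± 2.39 with DMSO, 72.0% ± 3.60 with DHT, 72.0% ± 4.77 with ENZ and 72.2% ± 1.55 with DHT+ENZ (SD, n = 3 each), and the 4 groups overlapped. In the mirror set 31 regions (1.02%) had a weaker peak in all 12 LNCaP lists and 428 (14%) had none. The share of mirror regions with any peak ran from 7.34% in the shallow LNCaP ENZ replicate 1 to 74.0% in LNCaP DMSO replicate 2.

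**Figure D1:**
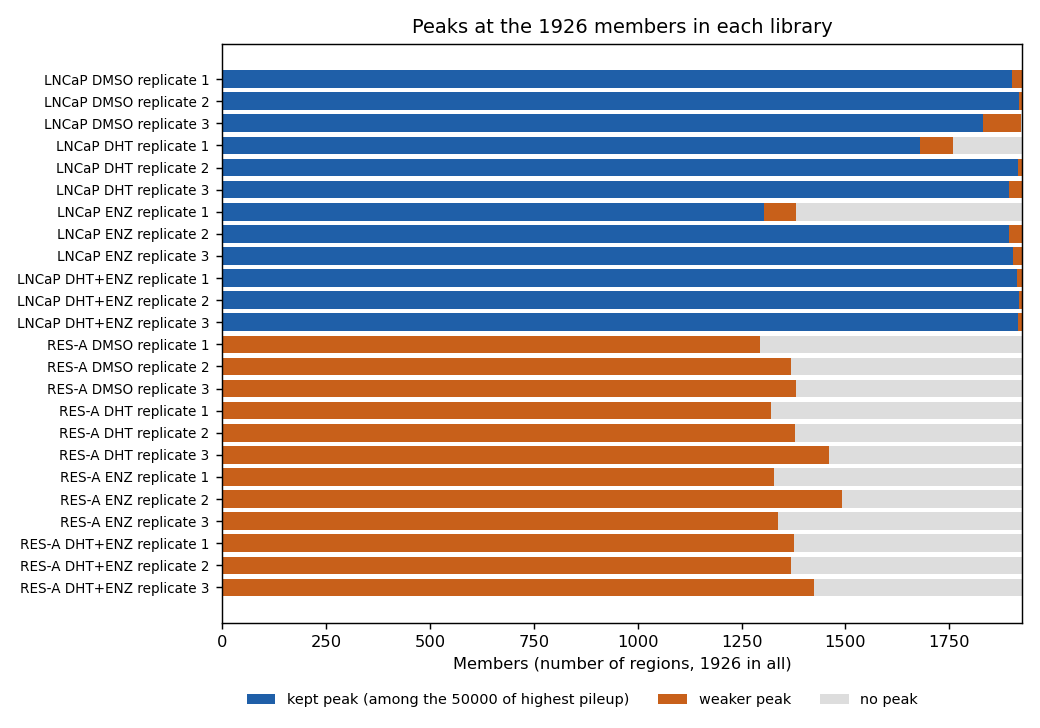
Number of the 1926 LNCaP-only regions (x axis) with a kept peak, a weaker peak or no peak in each of the 24 libraries (y axis). By the rule no RES-A bar has a kept part; 1295 to 1492 regions had a weaker peak in each RES-A library, and the 2 LNCaP libraries with a visible share of no peak are ENZ replicate 1 (546 regions) and DHT replicate 1 (168 regions).

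The weaker RES-A peaks were in the middle of their lists and not at the edge of the rule. Their median rank by pileup lay between 97370 and 111758 in the 12 RES-A lists, and their median percentile between 42.0 and 54.3. For 264 regions (13.7%) the best rank in any RES-A list was within 55000, for 470 (24.4%) within 60000, for 927 (48.1%) within 75000 and for 1306 (67.8%) within 100000. To compare heights across libraries, each pileup was divided by its library's median over the always-open regions. The median LNCaP-only region with a peak stood at 0.641 to 0.866 times that value in the LNCaP libraries and at 0.243 to 0.288 times in the RES-A libraries. The rule chose high pileup in LNCaP and low pileup in RES-A, so the gap between these ranges is a product of the choice. Over the 1776 regions with a RES-A peak the median log2 ratio of RES-A over LNCaP was -1.66 (quartiles -2.01 and -1.35), that is 31.6% of the LNCaP height, against -0.004 (quartiles -0.19 and 0.16) at the always-open regions. The ratio uses only lists with a peak, so it leaves out the libraries in which a region had none.

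Fold enrichment, which sets the pileup against the background of the same neighbourhood, differed less. Scaled to the always-open regions in the same way, its median log2 ratio was -0.90 at the LNCaP-only regions and -0.01 at the always-open regions. At the 785 regions with a peak in all 12 RES-A lists, the median fold was 6.81 in the 10 LNCaP lists other than the 2 shallow ones and 5.26 in RES-A, and at 82 of them (10.4%) the RES-A fold was not lower. These folds are as deposited, on a scale on which the always-open regions had 8.71 and 10.9. The background recovered from pileup and fold moved too. Over these 785 regions it stood at 1.77 times the genome-wide background in LNCaP and 1.16 times in RES-A, and it was lower in RES-A at 767 (97.7%). At the always-open regions it stood at 1.80 and 2.18 times and was lower in RES-A at 15.6%. The part of the local background in the members' difference was not tested.

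The extremes of the set show how far its regions differed. Positions are in hg19, and genes and sequences at them were not analysed here. Among the 150 regions without any RES-A peak, the 5 with the highest median LNCaP percentile (a1 to a5 in the plot of named members) were chr5:148205782-148206229, chr4:95933508-95934156, chr15:86722620-86723409, chr8:85404304-85404969 and chr8:14188541-14189395. The strongest, a1 on chromosome 5, was 448 bp long, was kept in all 12 LNCaP lists and had pileups from 12 to 139 (median 96.5) with folds from 5.16 to 8.47 (median 7.07). Relative to the always-open regions its LNCaP height was 109% at the lowest, 129% at the median and 156% at the highest, so it was above the typical always-open region in all 12 parental libraries. Region a2 on chromosome 4 ran from 92.3% to 152% (median 123%), a4 from 91.3% to 143% (median 119%) and a5 from 72.7% to 118% (median 110%). Region a3 on chromosome 15 had a peak in 11 of the 12 LNCaP lists, at 71.8% to 171% (median 120%).

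Among the regions with a RES-A peak, the 5 strongest in LNCaP (b1 to b5) were chr11:90191331-90192924, chr14:19432529-19434202, chr3:120314942-120315301, chr8:88377440-88378556 and chr8:35650941-35651718. They differed in how much was left in RES-A. Region b1, 1594 bp long, stood at 108% to 191% of the always-open median in LNCaP (median 141%) and at 21.8% to 44.4% (median 30.03%) in all 12 RES-A libraries. Its fold differed less than its height, with medians of 7.44 in LNCaP and 6.29 in RES-A. Region b2 stood at 105% to 156% (median 132%) in LNCaP and 30.6% to 43.7% (median 39.0%) in RES-A. Region b3, 360 bp long, had a peak in 5 RES-A lists, at a median of 23.6%, and b4 in 1, at 13.4%. Region b5 had the highest fold of the 5, from 6.25 to 13.2 in LNCaP (median 10.2), against 3.06 to 4.81 (median 4.20) in the 9 RES-A lists with a peak. In b1 to b5 no RES-A library reached the lowest LNCaP library, an order that the rule favours.

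**Figure D2:**
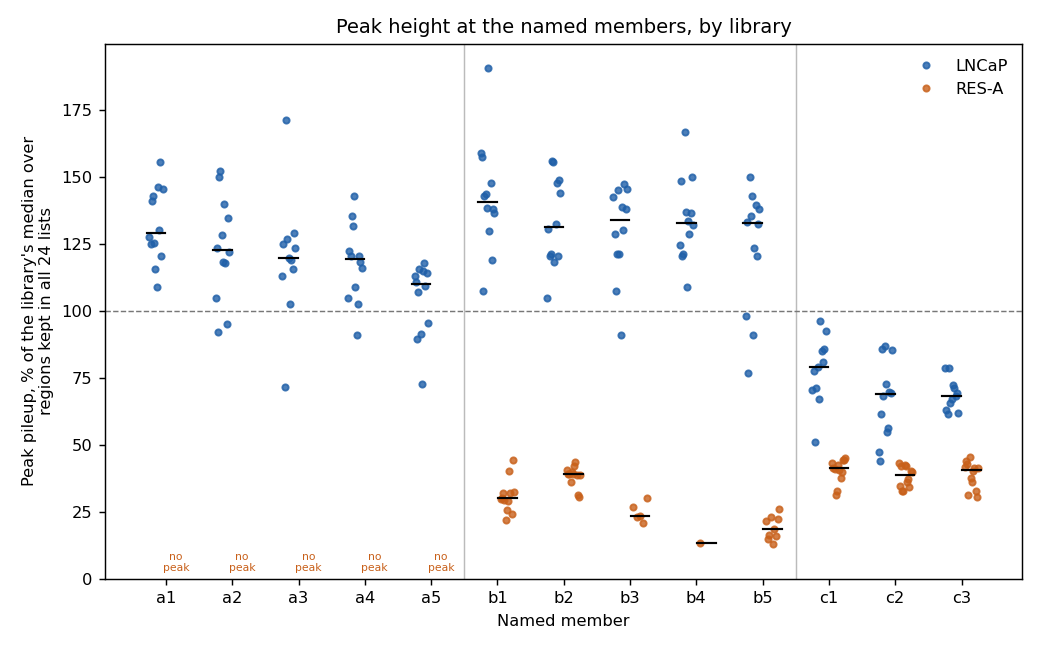
Peak pileup of 13 named LNCaP-only regions (x axis) as a percentage of the library's median over always-open regions (y axis; dashed line at 100%). Each point is a library with a peak and each black bar a median. Regions a1 to a5 have no RES-A peak. Regions b1 to b5 have RES-A peaks in 1 to 12 libraries, all below the lowest LNCaP library, an order that the rule favours. Regions c1 to c3 come closest to their LNCaP values.

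The regions closest to the rule's RES-A limit show the other end of the set. Of those with a weaker peak in all 12 RES-A lists, the 3 with the highest median RES-A percentile (c1 to c3) were chr11:60469220-60469864, chr17:41399775-41401255 and chr12:54392646-54392953, with median RES-A percentiles of 71.4, 69.3 and 69.3. Region c1 stood at 51.3% to 96.3% of the always-open median in LNCaP (median 79.3%) and at 31.1% to 45% (median 41.3%) in RES-A. Its median fold was 6.75 in LNCaP and 7.03 in RES-A, and that of c2 was 5.80 and 6.15, so for both the deposited fold was no lower in RES-A, as it was at most always-open regions. At c3 the folds were 6.81 and 6.51.

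The 150 regions without a RES-A peak differed widely in how far they lay from one. The stretch around them that was free of any peak in all 12 RES-A lists ran from 1.99 to 269 kb, with a median of 33.9 kb, and exceeded 100 kb at 25 regions. The nearest RES-A peak was 0.059 to 77.1 kb away, with a median of 5.79 kb. Chromosome 13 held 20 of the 150 (13.3%), 24.4% of its 82 LNCaP-only regions, against 7.79% over all LNCaP-only regions. Chromosome 5 held 19 (12.1% of its LNCaP-only regions), chromosome 8 held 18 (7.47%) and chromosomes 3 and 4 held 17 each (8.99% and 6.46%). Chromosome 18 held 7 (13.5%) and chromosome 2 held 8 (11.3%).

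LNCaP-only regions were unevenly spread over the genome. Chromosome 4 held 263 of them (3.78% of its merged regions) and chromosome 8 held 241 (4.09%), together with 189 on chromosome 3, 174 on chromosome 7 and 157 on chromosome 5. The lowest shares were those of chromosome 6 (35 regions, 0.54%) and chromosome 20 (14 regions, 0.58%). Chromosome 1, which had the most merged regions, held 108 (0.87%), while its share in the mirror set was 5.21%, close to the 5.40% of chromosome 6. Arms were divided at the widest stretch without any peak. The short arm of chromosome 8 held 149 LNCaP-only regions among 1622 merged regions (9.19%, 95% Wilson interval 7.88% to 10.7%) and 2 mirror regions. The long arm of the same chromosome held 92 among 4264 (2.16%). The long arm of chromosome 4 held 227 among 5058 (4.49%, interval 3.95% to 5.09%) and its short arm 36 (1.89%), and the short arm of chromosome 6 held 5 among 2784 (0.18%). The intervals cover counting error over regions only, which are not independent of each other.

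**Figure D3:**
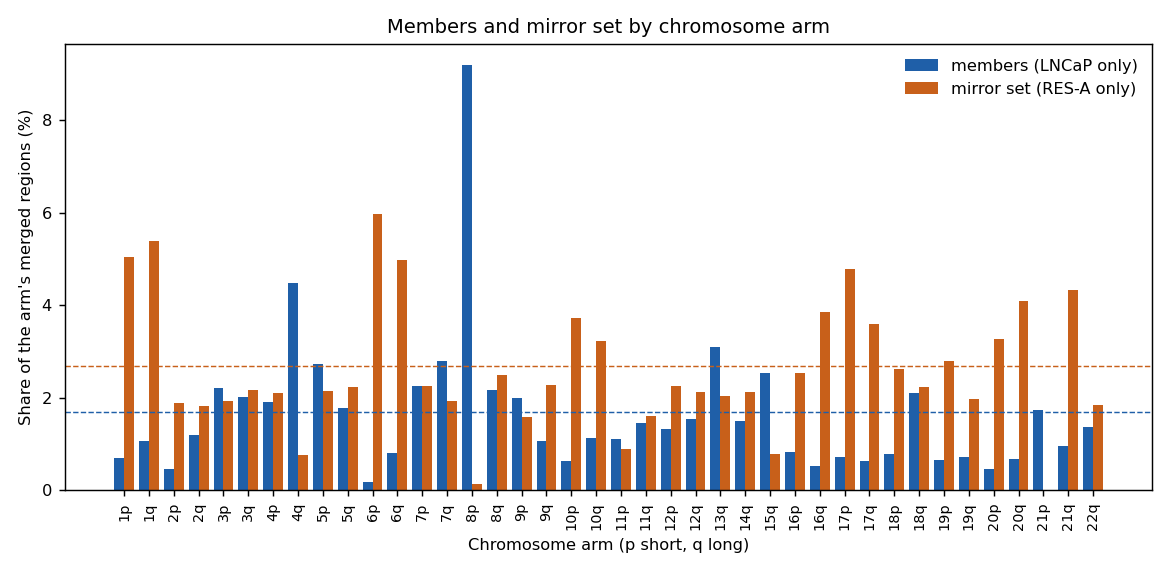
Share of each chromosome arm's merged regions (y axis, %) that were LNCaP-only (blue) or in the mirror set (orange), by arm (x axis; dashed lines give 1.69% and 2.69%, the shares over all arms). The short arm of chromosome 8 reaches 9.19% LNCaP-only regions with 0.12% in the mirror set, and both arms of chromosomes 1 and 6 show the opposite order.

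The 2 arms with the highest shares also had lower RES-A signal at sites that the rule did not choose as members. At the 88 always-open regions of the short arm of chromosome 8 the median log2 pileup ratio of RES-A over LNCaP was -0.73, against 0.01 at the 425 of the long arm. It was -0.27 on the long arm of chromosome 4 and -0.29 on chromosome 15, of whose merged regions 2.52% were LNCaP-only, and 0.31 on the short arm of chromosome 6. Not every rich arm had a low ratio: on chromosome 13 (3.10% LNCaP-only) it was -0.11, on the long arm of chromosome 7 (2.79%) -0.02 and on the short arm of chromosome 5 (2.72%) -0.02. Nor was every arm with a low ratio rich. The ratio was -0.19 on the short arm of chromosome 11 (1.11%) and -0.19 on chromosome 22 (1.36%). It was -0.60 at the 16 always-open regions of the short arm of chromosome 21 (1.73%). Across 10-Mb windows the share was lower where the ratio was higher. In the 8 windows with a ratio below -0.4, 6.95% of merged regions were LNCaP-only and 0.53% were in the mirror set. In the 36 windows above 0.2 the shares were 0.64% and 5.49%. Over 273 windows with at least 10 always-open regions, Pearson's r between the share of LNCaP-only regions and the ratio was -0.50 and Spearman's rho -0.49. This is a description over windows that share the same 24 libraries. These shares depended on the measure that ranked the peaks. Ranked by fold enrichment in place of pileup, the rule gave 920 regions and 3.04% of the merged regions on the short arm of chromosome 8, which was 3.90 times the share over all arms in that ranking, against 5.42 times by pileup.

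**Figure D4:**
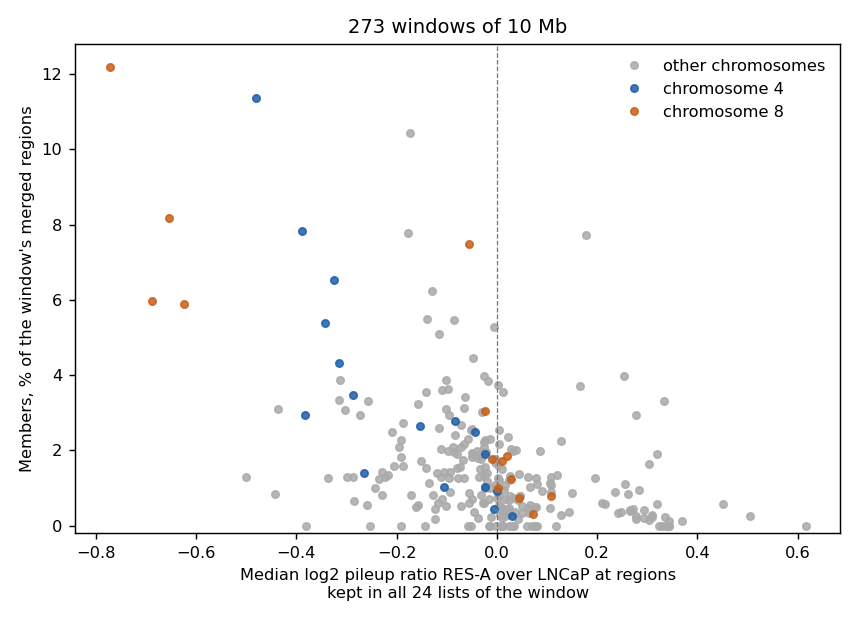
Share of LNCaP-only regions among merged regions (y axis, %) against the median log2 pileup ratio of RES-A over LNCaP at always-open regions (x axis) in 273 windows of 10 Mb, one point per window. Windows of chromosome 8 (orange) and chromosome 4 (blue) include the highest points on the left, and Pearson's r over all windows was -0.50.

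The rule fixed a low pileup ratio at the LNCaP-only regions themselves, so nothing is read from its size. Its median at the 1688 regions in these windows was -1.66, and -1.56 after subtracting the ratio of the always-open regions in the same window. It was -1.61 in windows below -0.4 and -1.56 in windows above 0.2. The median log2 ratio of fold enrichment at the LNCaP-only regions was lower where the window ratio was higher, from -0.77 in windows below -0.4 through -0.83, -0.92 and -0.94 to -0.99 in windows above 0.2. Fold sets the pileup, on which the rule chose, against the local background, so nothing is read from this order either. At the 91 regions of the short arm of chromosome 8 with a peak in all 12 RES-A lists, the local background was lower in RES-A at all 91, and the RES-A fold was not lower at 24.2%. The part of the regional level in the number of members was not tested.

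The 10 windows with the highest shares held 323 LNCaP-only regions (16.8%) and 2.88% of all merged regions. They began with chr13:60000001-70000000 (29 of 237 merged regions, 12.2%), chr8:20000001-30000000 (58 of 476, 12.2%), chr4:90000001-100000000 (46 of 405, 11.4%), chr4:130000001-140000000 (29 of 259, 11.2%) and chr3:80000001-90000000 (37 of 355, 10.4%). In 9 of the 10 the always-open regions, of which a window held only 6 to 29, had a ratio below 0. The exception, chr13:50000001-60000000, had 21 LNCaP-only regions among 272 (7.72%) and a ratio of 0.18, and the median ratio of its LNCaP-only regions was -2.39. A ratio below 0 was common. Of the 273 windows with at least 10 always-open regions, 117 had a ratio from -0.2 to 0, 27 from -0.4 to -0.2 and 8 below -0.4. In all, 257 of 293 windows held at least 1 LNCaP-only region.

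More LNCaP-only and fewer always-open regions lay around LNCaP-only regions than around merged regions at large. Within 100 kb of an LNCaP-only region, 6.37% of the other merged regions were LNCaP-only, against 1.47% around all merged regions, 0.96% around always-open regions and 0.46% around mirror regions. Always-open regions made up 8.24% of these neighbours, against 12.7% around all merged regions. Around mirror regions, 5.96% of the other merged regions were in the mirror set. The nearest always-open region was 121 kb away at the median (quartiles 42.9 and 354 kb). It was 46.7 kb away for the mirror set and 48.6 kb away for the 11489 other regions kept in at least 11 LNCaP lists. The nearest other LNCaP-only region was 154 kb away at the median (quartiles 42.9 and 559 kb). At the median it was thus farther than the nearest always-open region. Joined at gaps of up to 100 kb, the LNCaP-only regions formed 104 clusters of 3 or more that held 376 of them (19.5%, 95% Wilson interval 17.8% to 21.4%), beside 194 pairs and 1162 single regions. The interval covers counting error only and treats the regions as independent, which regions of the same cluster are not. The mirror set gave 20.1% of its 3052 regions in such clusters. The clustered share was 9.76% at 50 kb and 35.9% at 200 kb, and at 100 kb it differed between choices of regions. These choices, like the mirror set, also differ in the number of regions, on which a share at a fixed gap depends. Shares were not compared at equal numbers. It was 6.03% of 1311 regions when peaks were ranked by -log10 p, 1.41% of the 920 ranked by fold enrichment, 6.63% of the 799 kept in all 12 LNCaP lists and 27.2% of the 3186 found without the 2 shallow libraries.

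The largest cluster, chr4:81898941-82249795, held 10 LNCaP-only regions in 351 kb. Of the 17 merged regions in this span, none was kept in a RES-A list and none was always open. Kept peaks in the span numbered 11 to 13 in each LNCaP library and 0 in each RES-A library, and peaks of any strength numbered 15 to 55 (median 38.5) and 7 to 11 (median 9). The 10 regions did not behave alike within it. At chr4:81990900-81991286, with a weaker peak in all 12 RES-A lists, the median fold was 6.63 in LNCaP and 8.23 in RES-A, and at chr4:81910631-81911472 it was 5.07 and 6.58. These are deposited folds, for which the always-open regions had medians of 8.43 in LNCaP and 10.9 in RES-A, so no gain in RES-A is read from them. At chr4:82165107-82165600 and chr4:82248570-82249795, at the far end of the span, no RES-A list had a peak, while the median LNCaP folds were 5.98 and 6.03.

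The next clusters held 7 regions each. In chr4:94685783-94828474, 143 kb long, 3 neighbours (chr4:94793853-94794413, chr4:94797967-94798521 and chr4:94824084-94824706) had no RES-A peak, with median LNCaP folds of 4.48, 5.55 and 5.23. The first 3 regions of that cluster had a weaker peak in 11 or 12 RES-A lists, with median RES-A folds of 6.08, 6.72 and 6.68 against 7.06, 7.39 and 7.67 in LNCaP. These folds too are as deposited, on a scale that was higher in RES-A at the always-open regions. In chr8:39871655-40101276, 230 kb long, each of the 7 regions had a weaker peak in at least 6 RES-A lists, and the RES-A libraries had 23 to 31 peaks of any strength in the span, of which 1 to 4 were kept.

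Whether androgen or ENZ changed the regions within a subline was tested on all regions with a peak in every library of the subline, with limma on log2 pileups and Benjamini-Hochberg adjustment over all regions tested. In LNCaP 1208 of the 1926 regions entered. The rule limits what these tests can find there, since a region closed by a treatment in 3 libraries could not be a member. With DHT, 30 of the 1208 regions (2.48%) passed an adjusted p of 0.05 and all 30 were higher than with DMSO. Over all 31050 regions tested the share was 1.87%, with 1.57% higher and 0.296% lower, and over those kept in at least 11 LNCaP lists it was 1.31%, with 1.07% higher and 0.238% lower. The median log2 change was 0.07 at the LNCaP-only regions and -0.02 over all regions. At an unadjusted p under 0.05 the shares were 16.6% and 17.4%. The count depended on single libraries. It was 2, 3 and 5 without DHT replicate 1, 2 or 3, and 3, 15 and 0 without DMSO replicate 1, 2 or 3. In the same order the shares were 0.145%, 0.248%, 0.414%, 0.248%, 1.24% and 0% of the LNCaP-only regions. Over all regions they were 0.113%, 0.238%, 0.376%, 0.187%, 0.737% and 0.00316%. The count of LNCaP-only regions was 0 on fold enrichment, 96 (85 higher, 11 lower) with array weights and 124 of the 1922 then tested (112 higher, 12 lower) without the 2 shallow libraries. The shares over all regions were then 0% on fold enrichment, 7.31% with array weights (7.95% of the LNCaP-only regions) and 5.74% without the 2 libraries (6.45%).

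The region with the smallest adjusted p under DHT in LNCaP was chr1:187940875-187941414. Its pileups were 38, 76 and 27 with DMSO and 20, 112 and 96 with DHT, where the 20 belongs to the shallow DHT replicate 1. As a percentage of the always-open median they were 66.7% ± 3.80 and 139% ± 3.47 (SD, n = 3 each), and 69.8% ± 7.5 with ENZ and 76.7% ± 1.04 with DHT+ENZ. The 3 DHT libraries were thus above all others. The log2 change was 0.97 ± 0.15 (SE; limma, adjusted p = 0.00683; 5.26e-05 to 0.272 over the alternatives). In RES-A this region had no peak with DMSO or DHT+ENZ, a peak in 1 ENZ library at 11.8%, and a peak in 2 of the 3 DHT libraries at 30.9% and 31.1%. The 4 further regions named by their adjusted p, chr7:11650004-11650862, chr20:32851805-32852636, chr8:90319767-90320383 and chr14:85672064-85673041, had log2 changes from 0.82 to 0.93 and adjusted p from 0.00981 to 0.0166. They no longer passed in 4, 6, 6 and 5 of 12 alternatives, with adjusted p of up to 0.21 to 0.257, and the chromosome 1 region in 2 of 12.

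In LNCaP, 0 of the 1208 regions passed with ENZ against DMSO, and 0 of the 31050 regions tested (0%). At an unadjusted p under 0.05 the limma counts were 62 and 1471. For DHT+ENZ against DHT the count was also 0 of 1208 and 0 of 31050, with 112 and 3052 at an unadjusted p under 0.05. With array weights it was 20 of 1208 (1.66%) against 1.90% of all regions, and without the 2 shallow libraries it was 4 of 1922 (0.208%) against 0.395% of all regions.

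In RES-A the rule also limits what the tests can find, since a region that a treatment raised into the kept peaks of 1 library could not be a member. The tests could use only the 785 regions with a weaker peak in all 12 lists. With DHT, 111 of them (14.1%) passed, 76 higher (9.68%) and 35 lower (4.46%) than with DMSO. Over all 78436 regions tested the share was 25.5%, with 12.6% higher and 12.9% lower, and over the 9557 tested that were kept in no RES-A list it was 8.19%, with 4.58% higher and 3.61% lower. The median log2 change was 0.04 at the LNCaP-only regions and -0.05 over all regions. Without 1 of the DMSO or DHT libraries the count was 77 to 95, and on fold enrichment it was 78 (9.94%, against 15.1% of all regions).

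The region with the smallest adjusted p was chr4:98545268-98546105. Its RES-A pileups were 12, 16 and 14 with DMSO and 26, 21 and 34 with DHT, a log2 change of 1.34 ± 0.24 (SE; limma, adjusted p = 7.77e-06; 3.3e-06 to 0.000603 over the alternatives). Relative to the always-open regions it rose from 16.1% ± 1.99 to 40.8% ± 2.30 (SD, n = 3 each) and stood at 18.4% ± 3.52 with ENZ and 29.5% ± 9.19 with DHT+ENZ. In LNCaP it stood at 115% ± 13.1 with DMSO and 141% ± 13.2 with DHT. The rule favours lower RES-A than LNCaP values at every member, so nothing is read from that order. The next regions that rose were chr14:73905549-73906680, chr5:78964026-78965036, chr8:21817742-21818383 and chr11:16051298-16052090, with log2 changes from 1.09 to 1.25 and adjusted p from 3.46e-05 to 8.29e-05.

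The region that fell with the smallest adjusted p was chr12:57288295-57288943. Its RES-A pileups were 26, 32 and 44 with DMSO and 9, 9 and 20 with DHT, a log2 change of -1.07 ± 0.22 (SE; limma, adjusted p = 0.000101). Every DHT library was below every DMSO library. With DHT+ENZ the pileups were 30, 24 and 30, a log2 change of 1.04 ± 0.22 from DHT (SE; limma, adjusted p = 0.000869). The 2 comparisons share the DHT libraries. In LNCaP the same region stood at 73.4% ± 8.36 of the always-open median with DMSO, 57.6% ± 7.19 with DHT and 92.4% ± 15.2 with ENZ (SD, n = 3 each), where the DMSO and DHT libraries overlapped. The other named regions that fell with DHT, chr12:22530273-22530962, chr6:101487417-101487939, chr7:20356180-20356897 and chr10:59152270-59153166, had log2 changes from -0.95 to -0.81 and adjusted p from 0.000759 to 0.00379.

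Adding ENZ to DHT in RES-A moved 21 of the 785 regions (2.68%), 3 higher and 18 lower, against 10.3% of all regions tested (5.65% higher, 4.67% lower) and 2.84% of those kept in no RES-A list. The count was 8 on fold enrichment (1.02%, against 2.56% of all regions), 38 of 946 with only the 6 libraries compared (4.02%, against 11.1%) and 35 of 1007 with a peak in all but 1 of the lists (3.48%, against 10.7%). The region that fell with the smallest adjusted p, chr8:24221319-24221703, had pileups of 27, 15 and 33 with DHT and 11, 16 and 16 with DHT+ENZ, a log2 change of -1.04 ± 0.23 (SE; limma, adjusted p = 0.00161). Relative to the always-open regions it went from 37.3% ± 8.88 to 19.3% ± 3.31 (SD, n = 3 each), against 21.4% ± 2.54 with DMSO. On that scale the DHT libraries were all above the DHT+ENZ libraries, while the unscaled pileups overlapped. The other 4 named regions that fell, chr7:84888214-84888921, chr1:79829096-79829691, chr2:140345903-140346447 and chr7:108887756-108888241, had log2 changes from -0.97 to -0.88. Besides the region on chromosome 12, chr4:143408769-143409600 rose by 0.74 ± 0.22 and chr15:77064744-77065823 by 0.72 ± 0.23 (SE; limma, adjusted p = 0.0162 and 0.0325), and these 2 no longer passed in 3 and 7 of 12 alternatives. With ENZ alone against DMSO in RES-A, 0 of the 785 regions passed and 30 of all 78436 (0.0382%; 0.037% higher and 0.00127% lower), with 20 and 5091 at an unadjusted p under 0.05.

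DHT could be followed in both sublines at 513 LNCaP-only regions. Of these 5 passed in LNCaP (0.975%), 75 in RES-A (14.6%) and 2 in both (0.39%). Over all 28416 regions tested in both sublines the shares were 1.32%, 22.5% and 1.14%. The 2 are named here after their values were seen, since they are so few. At chr5:132904926-132905456 the LNCaP pileups were 24, 66 and 19 with DMSO and 15, 88 and 59 with DHT, which is 49.2% ± 10.1 and 99.6% ± 13.2 of the always-open median (SD, n = 3 each). In RES-A it rose from 20.9% ± 6.25 to 36.9% ± 3.70. The log2 changes were 0.87 ± 0.19 in LNCaP and 0.87 ± 0.24 in RES-A (SE; limma, adjusted p = 0.0244 and 0.00324). At chr10:115808611-115809361 the height went from 53.5% ± 6.50 to 97.5% ± 15 in LNCaP and from 22.0% ± 4.23 to 39.0% ± 1.74 in RES-A, with log2 changes of 0.71 ± 0.18 and 0.87 ± 0.22 (SE; limma, adjusted p = 0.0405 and 0.0017). On fold enrichment, and without LNCaP DMSO replicate 3, no LNCaP-only region passed in LNCaP, so neither of the 2 passed in both sublines there. In both regions the scaled heights of the DHT libraries did not overlap those of the DMSO libraries of the same subline. That RES-A stood below LNCaP under DHT is what the rule favours, so nothing is read from it. When the difference of the DHT change between the sublines was itself tested, 0 of the 513 regions passed and 23 of all 28416 (0.0809%), with 41 and 2619 at an unadjusted p under 0.05 by limma.

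**Figure D5:**
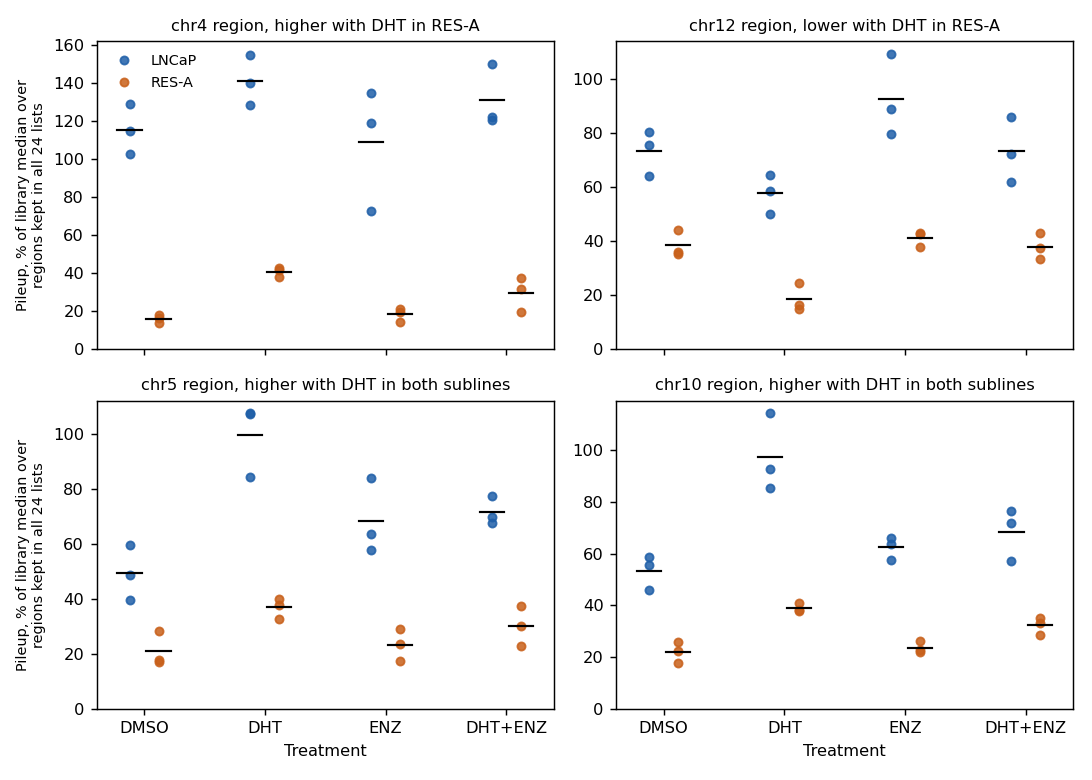
Pileup of 4 LNCaP-only regions as a percentage of the library's median over always-open regions (y axis) by treatment (x axis) in LNCaP (blue) and RES-A (orange), with 1 point per library and a bar at the mean of 3. Under DHT the chromosome 4 region rose in RES-A from a mean of 16.1% to 40.8%, the chromosome 12 region fell there from 38.4% to 18.5%, and the regions on chromosomes 5 and 10 rose in both sublines.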

How the data were processed

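FAIRE-seq peak lists of 24 libraries, 3 for each of 2 sublines and 4 treatments, were analysed, with groups and replicate numbers from the sample titles. Per the labels and methods, the authors made 50-bp single-end reads, mapped these with BWA 0.7.8-r455 (hg19), marked duplicates in Picard 1.118 and ran MACS2 2.1.0 on every library separately. Caller options and controls are not given in the sources used here. The deposited pileup is a signal that the authors did not scale between libraries, and it is tied to depth. The deposited fold enrichment is a ratio over the caller's background. The −log10 p-value and q-value columns are deposited by the authors as well. Read depth is unknown, so the number of peaks and the background recovered as (pileup + 1) / fold − 1 stand in for it, which assumes that the caller added 1 to both.

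The regions and lists described were chosen with earlier results of these data known. A region's value in a library was the highest pileup of any peak overlapping it. Treatment tests used limma 3.58.1 in R 4.3.3 on log2 pileups, quantile-normalized between libraries of a subline, with a mean-variance trend, two-sided, at an adjusted p of 0.05. Regions lacking a peak in any library fitted were left out, so values below the peak threshold never enter. The scripts were tested on simulated data. Intervals are 95% Wilson intervals. Named regions are the 5 of highest median LNCaP percentile without and the 5 with a RES-A peak, the 3 with weaker peaks in most RES-A lists (ties by RES-A percentile), the 3 largest clusters and, per treatment comparison, up to 5 members a direction of smallest adjusted p. Peaks on 15 of 24 chromosomes run past the chromosome's end in GRCh38, the only assembly at hand, so genes and sequences were not analysed here.

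Alternatives were other rankings, numbers of kept peaks and list requirements, other normalization, fold enrichment, array weights, a replicate block and leaving out libraries. Ranking by fold enrichment, all alternatives for chromosome arms and, for clusters, those on lists and libraries were added after seeing the data.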

Additional observations from a re-analysis of the deposited data

How the results depend on the processing

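The number of LNCaP-only regions was 876 with 25000 kept peaks, 799 with all 12 LNCaP lists required, 3023 with 10 required, 3186 without the 2 libraries of fewest peaks and 920 when ranked by fold enrichment, and it was 1936 to 2625 without single libraries. Of the 1926 regions, 342 overlapped those found with 25000 kept peaks, 1122 those found with 70000, 1039 those ranked by −log10 p and 536 those ranked by fold enrichment. The share in clusters was 9.76% at 50 kb, 35.9% at 200 kb, 6.03% when ranked by −log10 p, 1.41% when ranked by fold enrichment, 6.63% with all 12 LNCaP lists and 27.2% without the 2 libraries of fewest peaks. Sets under other rankings, lists and libraries differed in size, and these shares were not compared at equal numbers. The share on the short arm of chromosome 8 was 3.04% ranked by fold enrichment, 5.90% ranked by −log10 p, 17.5% without the 2 libraries of fewest peaks and 4.32% with all 12 LNCaP lists, each 3.90 to 6.14 times the share over all arms under the same choice. The share with a weaker RES-A peak was 70.5% to 72.7% under its alternatives and 71.0% to 71.9% without single RES-A libraries. For DHT against DMSO in LNCaP the count of 30 became 0 on fold enrichment, 96 with array weights, 124 without the 2 libraries of fewest peaks and 0 to 15 without single libraries. The share over all regions without single libraries was 0.00316% to 0.737%. For DHT+ENZ against DHT the LNCaP count of 0 became 20 with array weights and 4 without the 2 libraries of fewest peaks. In RES-A the count of 21 became 8 on fold enrichment, 35 with a peak in all but 1 list, 38 with only the treatments compared and 15 to 19 without single libraries. For DHT against DMSO in RES-A it was 77 to 95 without single libraries. Every leave-one-out count was 0 for ENZ against DMSO in both sublines, for DHT+ENZ against DHT in LNCaP and for the difference between sublines. Over all regions the leave-one-out shares reached at most 0.0268% for ENZ in RES-A and 0.158% for the difference between sublines. Replicate numbers were not taken to pair the libraries in the main fits. Deviations from the group mean correlated by -0.15 to 0.29 (mean 0.12) between same-numbered LNCaP libraries and by -0.29 to 0.24 (mean -0.06) between the others. The correlation was over 0.1 in 9 of 18 and 4 of 36 pairs. In RES-A it was -0.05 to 0.10 (mean 0.03) and -0.09 to 0.04 (mean -0.02). Whether same-numbered LNCaP libraries share an effect was not tested, so the replicate block is given beside the main fits. With a replicate block the counts in LNCaP were 39 for DHT and 0 for the others, in RES-A 114 for DHT, 0 for ENZ and 22 for DHT+ENZ against DHT, and 0 for the difference between sublines, and the block moved none of these counts of LNCaP-only regions by over 1.5 times. The 39, 114 and 22 were 3.23%, 14.5% and 2.80% of the LNCaP-only regions tested, against 2.79%, 26.3% and 11.3% of all regions. Over all 28416 regions tested for the difference between sublines the block moved the count from 23 to 51. For DHT in LNCaP it moved the count over all 31050 regions from 581 to 867. Of 276 alternative values for single named regions, 36 no longer passed and none changed sign. The causes of these changes were not tested. Depth limits what was seen in LNCaP ENZ replicate 1 and LNCaP DHT replicate 1, where 546 and 168 of the LNCaP-only regions had no peak.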

Other observations

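Chromosome X was outside the rule. Under the same choice of kept peaks it held 2316 merged regions, of which 9 (0.39%) were kept in at least 11 LNCaP lists and in no RES-A list, against 1.69% on the autosomes, and 23 (0.99%) met the mirrored condition, against 2.69%.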
